A study of Mus musculus with 20 samples.

Results

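The 7 immune receptor genes of alveolar macrophages described here were chosen by name, with earlier results of these data known. All 7 were found among the 13225 genes of the deposited table. They are Fcgr1, Fcgr3 and Fcgr4, which encode activating receptors for IgG; Fcer1g, which encodes the FcR gamma chain; Fcgr2b, which encodes the inhibitory IgG receptor; Siglece, which encodes a sialic acid receptor; and Pira2, which encodes a paired immunoglobulin-like receptor. The macrophages were sorted from mouse lung as CD45+, SiglecF+ and CD11c+ cells, and poly-A RNA was sequenced with 1 library per mouse. The groups, of 5 mice each, were miR-155 knockout (KO) mice of the strain B6.Cg-Mir155tm1.1Rsky/J under cigarette smoke, KO mice of that strain in air, wild-type (WT) C57BL/6 mice under smoke, and WT mice in air, all for 4 weeks. Age and sex of the mice were not given in the sources used here, nor whether KO and WT mice were littermates. KO and WT mice differed in strain label as well as in miR-155, so genotype and strain cannot be told apart.

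IgG receptors bind the constant part of antibodies and let macrophages take up coated particles and immune complexes. The activating receptors signal through the ITAM, a tyrosine motif carried by the FcR gamma chain, which recruits the kinase Syk. Fcgr2b carries an ITIM, the inhibitory counterpart, which recruits the lipid phosphatase encoded by Inpp5d. Siglec-E also carries ITIMs and binds sialic acids, while PIR-A receptors pair with the FcR gamma chain and are opposed by the ITIM-bearing PIR-B.

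Total reads ran from 6885680 to 11952088 per library. Mir155hg, the host transcript of miR-155, had 0 to 5 reads per library in KO smoke, 0 to 15 in KO air, 0 to 21 in WT smoke and 0 to 1 in WT air, which is too few to check the genotype, and the deleted stretch of the locus is not stated in the labels. The genes behind the sort were present in all 20 libraries, with Ptprc (CD45) at 761 to 1391 CPM (read counts scaled to library size), Siglecf at 168 to 606 CPM and Itgax (CD11c) at 1746 to 2166 CPM. The KO air libraries of mice IIIb2, IIIb3 and IIIb4 stood apart in having 1645, 1524 and 1451 genes without a read, against 259 to 1224 in the other libraries, so calls of the 7 genes that rest on KO air are also given without them, as are the counts of the pathway lists with smoke in KO.

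Among the 7 genes, 4 lie together on mouse chromosome 1 (GRCm38, GENCODE M21). Fcgr2b occupies chr1:170958617-170976547 and Fcgr3 chr1:171051174-171064935, both on the minus strand, with Fcgr4 between them on the plus strand at chr1:171018920-171029761 and Fcer1g at chr1:171229572-171234365 on the minus strand. Fcgr1 stands alone at chr3:96282909-96293969 on the minus strand. Siglece (chr7:43651070-43660161) and Pira2 (chr7:3836812-3845051) are both on the minus strand of chromosome 7. Of the 50-base stretches in Pira2 exons, 92.95% also occur in exons of other genes, against 9.58% for Fcgr3 and 4.38% for Fcgr2b, which share sequence with each other, and 0.0% for the other 4 members. Fcgr2b exons also overlap those of Gm38204 on the opposite strand by 155 bases, and the strand setting of the counting is not given in the sources used here. Values of Pira2 are uncertain where the authors' counting could split reads between copies.

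The 150 bases before the start sites of Fcgr1 and Siglece are shown because both genes fell with smoke in both genotypes, and those of Pira2 and Lilra6 because these are neighbouring, similar receptor genes with different values. The sequences are from RefSeq on GRCm38.p6, all on the minus strand: Fcgr1 chr3:96293970-96294119, Siglece chr7:43660162-43660311, Pira2 chr7:3845052-3845201 and Lilra6 chr7:3915502-3915651. Capitals mark matches on either strand to the PU.1 core GAGGAA or to the interferon gamma-activated site TTCNNNGAA.
Fcgr1: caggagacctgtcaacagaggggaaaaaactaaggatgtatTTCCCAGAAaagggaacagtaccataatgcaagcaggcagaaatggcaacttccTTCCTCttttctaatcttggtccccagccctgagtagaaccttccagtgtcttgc
Siglece: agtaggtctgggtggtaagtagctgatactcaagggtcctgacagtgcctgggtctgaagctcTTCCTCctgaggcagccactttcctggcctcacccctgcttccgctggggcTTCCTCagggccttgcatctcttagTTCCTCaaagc
Pira2: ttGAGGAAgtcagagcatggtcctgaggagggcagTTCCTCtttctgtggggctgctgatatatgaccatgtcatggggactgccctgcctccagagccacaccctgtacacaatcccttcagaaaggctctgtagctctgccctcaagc
Lilra6: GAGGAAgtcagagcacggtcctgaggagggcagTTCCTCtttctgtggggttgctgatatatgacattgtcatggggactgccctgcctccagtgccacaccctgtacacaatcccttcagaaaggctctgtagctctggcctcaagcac
PU.1 is a myeloid transcription factor. Fcgr1 held the only match to TTCNNNGAA among the 7 members, at 109 to 101 bases before its start, and 4.09% of 32851 promoter windows of that length held one. GAGGAA was matched 3 times in Siglece, 2 times in Pira2, 1 time each in Fcgr1, Fcgr3 and Fcgr4, and not in Fcgr2b or Fcer1g, and 14.47% of all windows held it. None of the matches overlapped. The AP-1 letters TGANTCA, in 4.24% of all windows, were matched in none of the 7. Over 250 bases before the start, Pira2 and Lilra6 were 94.4% identical.

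Per kilobase of exon, Fcer1g and Fcgr3 were the most abundant members and Pira2 the least, in every group. On that scale, Fcer1g averaged 684 ± 39.8 CPM in KO smoke, 670 ± 51.0 in KO air, 790 ± 51.5 in WT smoke and 636 ± 37.0 in WT air (SD, n = 5 mice each). Fcgr3 followed with group means of 296 to 351 CPM per kilobase and Fcgr4 with 67.7 to 95.9. Below them the order differed between exposures and, in air, between genotypes. The scale takes all annotated exon bases of a gene, from 874 for Fcer1g to 5790 for Fcgr2b. Whether these cells use all of them was not tested. In KO smoke, Fcgr2b averaged 34.7 ± 6.50, Fcgr1 17.8 ± 2.76 and Siglece 17.1 ± 1.86 CPM per kilobase, so that Fcgr1 and Siglece did not differ beyond their spread. In KO air, Siglece stood at 42.5 ± 8.07, Fcgr2b at 32.4 ± 1.74 and Fcgr1 at 31.1 ± 5.48 CPM per kilobase, the last 2 within their spread. In WT smoke the order was that of KO smoke, with Fcgr2b at 46.0 ± 5.10, Fcgr1 at 20.1 ± 5.71 and Siglece at 15.2 ± 2.20, the last 2 again within their spread. In WT air, Fcgr2b was at 43.9 ± 5.36, Siglece at 32.2 ± 2.71 and Fcgr1 at 27.4 ± 1.77 CPM per kilobase. Pira2 had group means of 2.98 to 9.70.

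**Figure D1:**
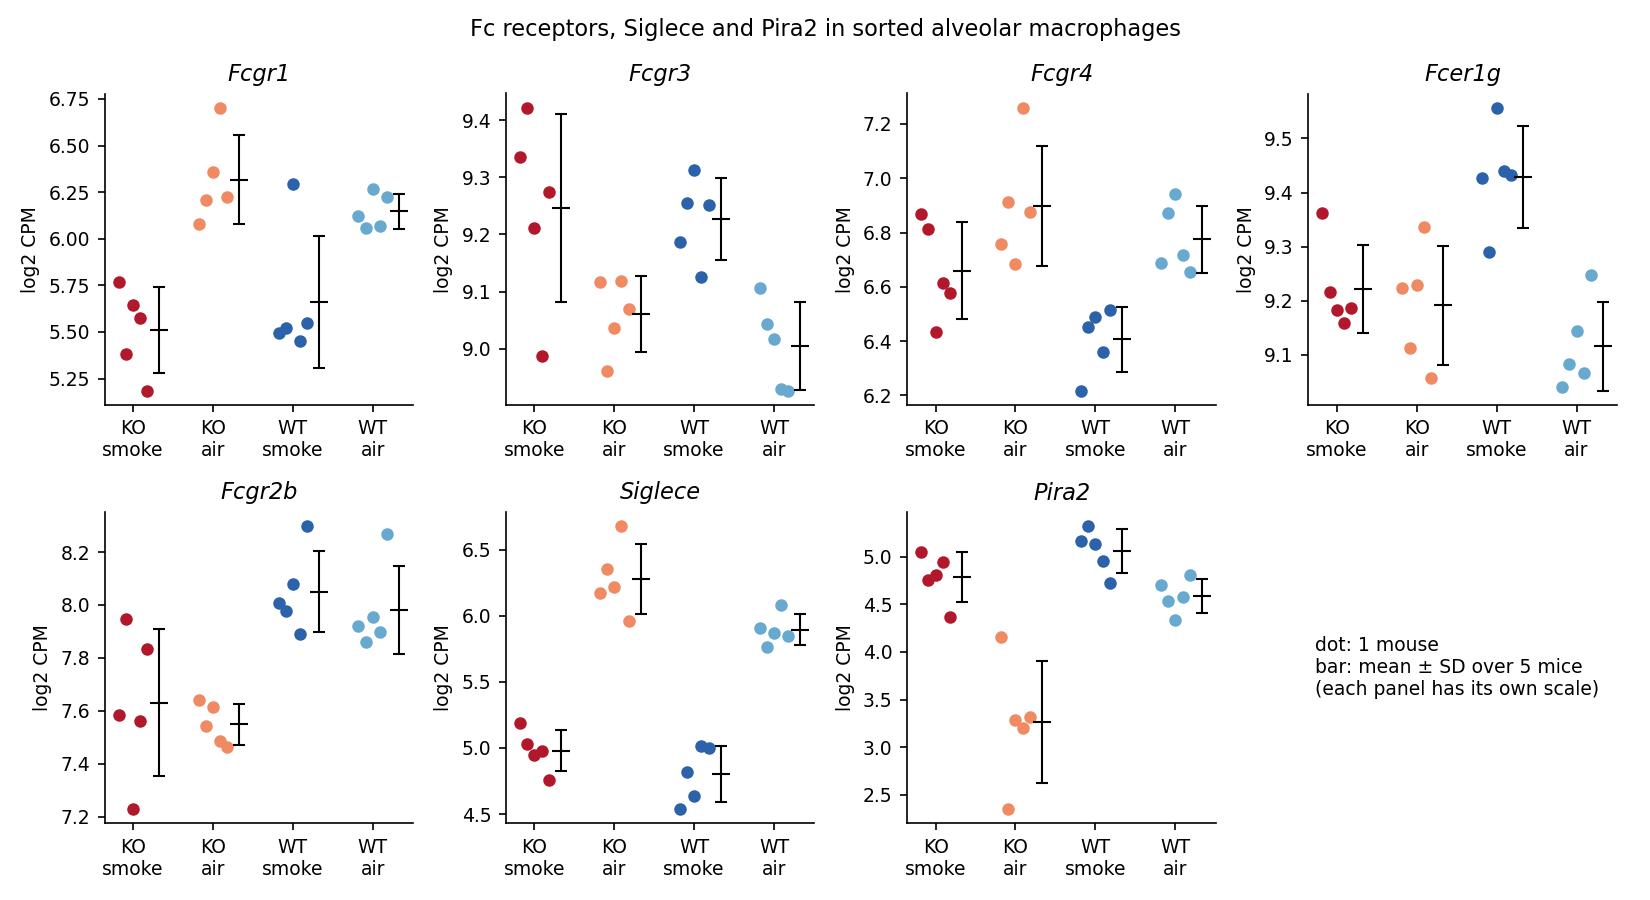
Deposited log2 CPM (vertical axis, a separate scale in each panel) of the 7 genes in each mouse of the 4 groups (horizontal axis), with the mean and SD over 5 mice. Siglece is low in all 10 smoke mice, Fcgr2b is low in KO mice, and Pira2 is low in KO air.

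Smoke was set against air within each genotype with limma on the deposited log2 CPM of all genes. A gene is called here at a Benjamini-Hochberg adjusted p under 0.05. In KO mice 3 of the 7 members were called, 1 higher and 2 lower, where 15.5% of all genes were called (7.05% higher and 8.45% lower). In WT mice 5 of the 7 were called, 2 higher and 3 lower, where 22.4% of all genes were called (9.66% higher and 12.8% lower). Because the 7 genes were chosen with earlier results of these data known, these counts are descriptions and not a test of the set. Siglece and Fcgr1 were lower with smoke in both genotypes. Fcgr4 was lower, and Fcgr3 and Fcer1g higher, with smoke in WT, and Pira2 was higher with smoke in KO. In bulk RNA of sorted cells, fewer cells with a transcript and less transcript per cell cannot be told apart.

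**Figure D2:**
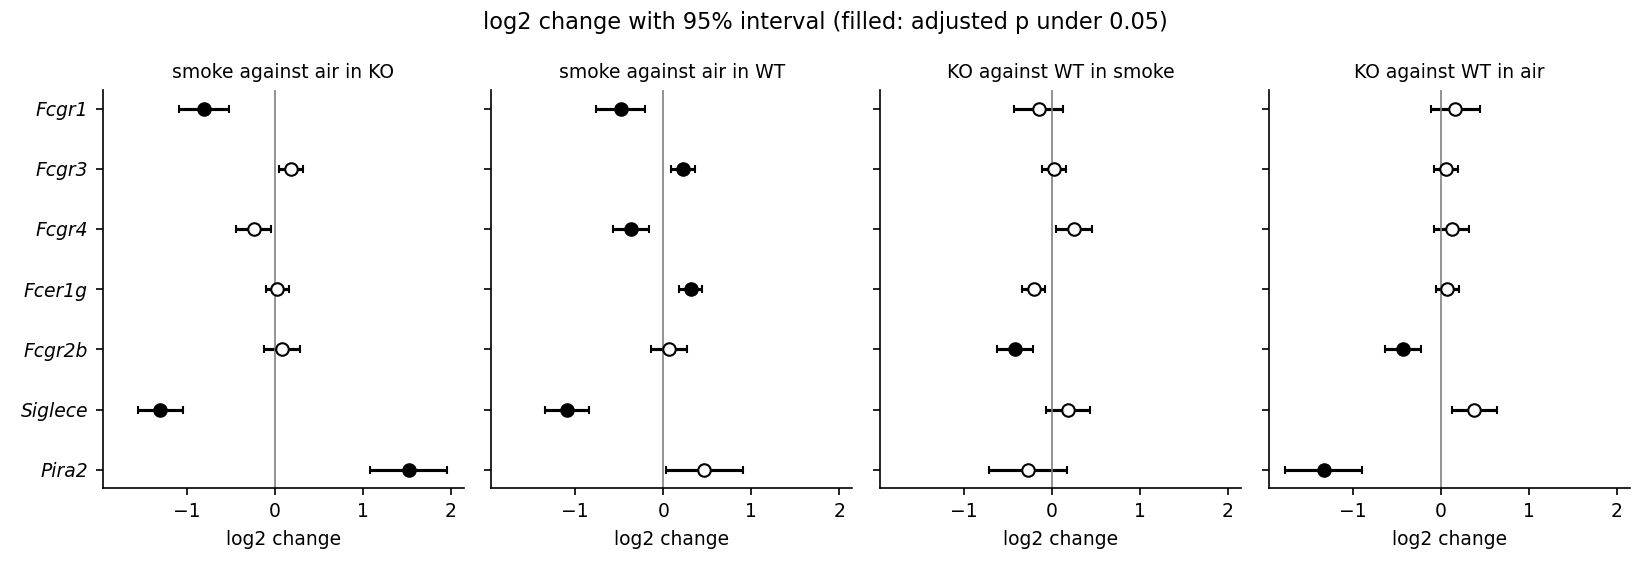
log2 change (horizontal axis) of each member (vertical axis) in 4 comparisons, with its 95% interval from limma on 5 mice per group; filled points were called. Siglece stands at -1.30 in KO and -1.09 in WT with smoke, and Pira2 at 1.52 in KO with smoke and at -1.33 for KO against WT in air.

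Fcgr1 encodes the high-affinity IgG receptor CD64. It measured 54.5, 41.6, 50.03, 47.6 and 36.3 CPM in KO smoke mice, against 67.5, 73.9, 82.0, 104 and 74.8 CPM in KO air mice. Every KO smoke mouse lay below every KO air mouse. Its log2 change came to -0.80 ± 0.14 (limma SE, 5 mice a group; limma adjusted p = 9.79e-05), a level of 0.573 times that in air, and without the 3 KO air mice named above it was -0.63 (limma adjusted p = 0.0178). In WT, Fcgr1 measured 45.0, 45.9, 78.3, 43.7 and 46.7 CPM in smoke mice, against 69.6, 66.5, 76.8, 67.1 and 74.6 CPM in air mice. In all, 4 of the 5 WT smoke mice were below all WT air mice, while mouse IIb1, at 78.3 CPM, was above them. The WT change was -0.49 ± 0.14 (limma adjusted p = 0.00991), and -0.64 without mouse IIb1.

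Fcgr4 encodes an activating receptor for IgG2a and IgG2b. It measured 117, 112, 86.3, 97.8 and 95.3 CPM in KO smoke mice, against 108, 121, 103, 153 and 117 CPM in KO air mice. These groups overlapped, and the log2 change of -0.24 ± 0.10 was not called (limma adjusted p = 0.102), although it was without KO air mouse IIIb2 (limma adjusted p = 0.0485); without the 3 KO air mice together it was -0.18. In WT, Fcgr4 measured 74.4, 87.6, 89.8, 82.1 and 91.3 CPM in smoke mice, against 103, 117, 123, 105 and 101 CPM in air mice. The WT groups did not overlap. The WT change was -0.37 ± 0.10 (limma adjusted p = 0.00648) and was called with each WT mouse left out.

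Fcgr3 encodes the low-affinity activating receptor CD16, which also needs the FcR gamma chain. It measured 646, 686, 592, 507 and 619 CPM in KO smoke mice, against 555, 498, 525, 556 and 537 CPM in KO air mice. In all, 4 of the 5 KO smoke mice exceeded all KO air mice, and mouse IVb2 at 507 CPM did not. The log2 change in KO was 0.18 ± 0.07 with a limma adjusted p of 0.0581, and the limma adjusted p was 0.00597 without mouse IVb2 and 0.177 without the 3 KO air mice. In WT, Fcgr3 measured 583, 611, 636, 558 and 610 CPM in smoke mice, against 551, 528, 518, 488 and 487 CPM in air mice. The WT groups did not overlap. The WT change was 0.22 ± 0.07 (limma adjusted p = 0.0154).

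Fcer1g, whose product is the signalling chain of the 3 activating receptors, measured 658, 594, 581, 571 and 583 CPM in KO smoke mice, against 598, 553, 600, 647 and 532 CPM in KO air mice. The KO groups overlapped throughout, with a log2 change of 0.03 ± 0.06 and a 95% interval of -0.10 to 0.16 (limma adjusted p = 0.815), and 0.05 without the 3 KO air mice. In WT, Fcer1g measured 688, 626, 753, 694 and 691 CPM in smoke mice, against 526, 542, 565, 536 and 607 CPM in air mice. All WT smoke mice exceeded all WT air mice. The WT change was 0.31 ± 0.06 (limma adjusted p = 0.000455). The difference of the 2 responses, KO minus WT, was -0.28 ± 0.09 (95% interval -0.47 to -0.10) and did not pass over all genes (limma adjusted p = 0.292).

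Fcgr2b, the inhibitory receptor, measured 192, 247, 150, 189 and 228 CPM in KO smoke mice, against 199, 187, 196, 179 and 176 CPM in KO air mice. In WT it measured 257, 252, 271, 237 and 315 CPM in smoke mice, against 242, 232, 248, 238 and 308 CPM in air mice. Smoke and air mice overlapped in both genotypes. The smoke change was 0.08 ± 0.10 in KO (95% interval -0.12 to 0.29; limma adjusted p = 0.651) and 0.07 ± 0.10 in WT (95% interval -0.13 to 0.27; limma adjusted p = 0.688).

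Siglece had the largest fall of the 7 with smoke in either genotype. It measured 36.5, 32.6, 30.8, 31.4 and 26.9 CPM in KO smoke mice, against 72.2, 81.6, 74.5, 102 and 62.3 CPM in KO air mice. In WT it measured 23.2, 28.1, 24.9, 32.3 and 31.9 CPM in smoke mice, against 60.0, 54.2, 58.3, 67.7 and 57.6 CPM in air mice. No smoke mouse reached the level of any air mouse. The log2 change was -1.30 ± 0.12 in KO (limma adjusted p = 7.99e-09), 0.407 times the level in air and -1.28 without the 3 KO air mice, and -1.09 ± 0.12 in WT (limma adjusted p = 1.13e-07), 0.469 times. The 2 responses differed by -0.20 ± 0.17 (95% interval -0.56 to 0.15; limma adjusted p = 0.739).

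Pira2 measured 33.2, 26.9, 27.9, 30.6 and 20.6 CPM in KO smoke mice, against 17.7, 5.05, 9.70, 9.15 and 9.91 CPM in KO air mice. In WT it measured 35.7, 39.9, 35.0, 30.9 and 26.4 CPM in smoke mice, against 26.0, 23.1, 20.1, 23.9 and 27.8 CPM in air mice. The KO air mice were below all other mice, while WT smoke and WT air mice overlapped. The smoke change in KO was 1.52 ± 0.21 on the log2 scale (limma adjusted p = 6.94e-06), 2.87 times the level in air, and 1.53 without the 3 KO air mice (limma adjusted p = 0.00068). The smoke change in WT was 0.47 ± 0.21 and was not called (limma adjusted p = 0.124). The difference of the responses was 1.06 ± 0.30 (95% interval 0.43 to 1.68) with a limma adjusted p of 0.252, and 0.0439 without KO air mouse IIIa5, which had the highest Pira2 of its group.

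Reads of Pira2 and its near copies were then set beside each other, a choice made after the values were seen. Gm15922, whose exons hold the most Pira2 stretches (82.55%), averaged 8.56 CPM in KO smoke, 9.13 in KO air, 8.20 in WT smoke and 7.69 in WT air. Gm14548, whose exons hold 31.69% of the Pira2 stretches, measured 14.9, 9.97, 6.13, 11.3 and 26.2 CPM in KO smoke mice, against 4.60, 21.6, 10.1, 22.1 and 23.9 CPM in KO air mice. It measured 12.7, 9.81, 12.8, 9.86 and 9.84 CPM in WT smoke mice, against 8.45, 9.70, 5.89, 5.76 and 7.97 CPM in WT air mice. In KO air, the mouse with the most Pira2 (IIIa5) had the least Gm14548, and the mouse with the least Pira2 (IIIb1) had 21.6 CPM of Gm14548. In KO smoke, the mouse with the least Pira2 (IVb4) had the most Gm14548. KO air mice IIIb3 and IIIb4 were also low in Pira2, at 9.15 and 9.91 CPM, and high in Gm14548, at 22.1 and 23.9 CPM. Not every mouse showed such a trade. KO smoke mouse IVa2, with the most Pira2 of its group (33.2 CPM), had 14.9 CPM of Gm14548. KO air mouse IIIb2 had 9.70 CPM of Pira2 and 10.1 CPM of Gm14548.

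The sum of Pira2 and Gm14548 averaged 41.6 ± 6.07 CPM in KO smoke, 26.8 ± 5.87 in KO air, 44.6 ± 5.83 in WT smoke and 31.7 ± 3.97 in WT air (SD, n = 5 each). With Gm15922, Gm15448 and Lilra6 added, the sum averaged 83.8 ± 12.4 CPM in KO smoke, 70.4 ± 12.1 in KO air, 85.9 ± 8.37 in WT smoke and 70.4 ± 10.6 in WT air. On this wider sum, KO air and WT air differed by less than their SDs, and KO smoke and WT smoke differed by less than their SDs. None of Gm15922, Gm14548, Gm15448 and Lilra6 was called in any of the 5 comparisons, with log2 changes for KO against WT in air of 0.18, 0.91, -0.40 and 0.37 and limma adjusted p-values of 0.844, 0.318, 0.67 and 0.461. Whether reads were shared between copies in the counting was not tested, since the counting tool is not given in the sources used here.

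**Figure D3:**
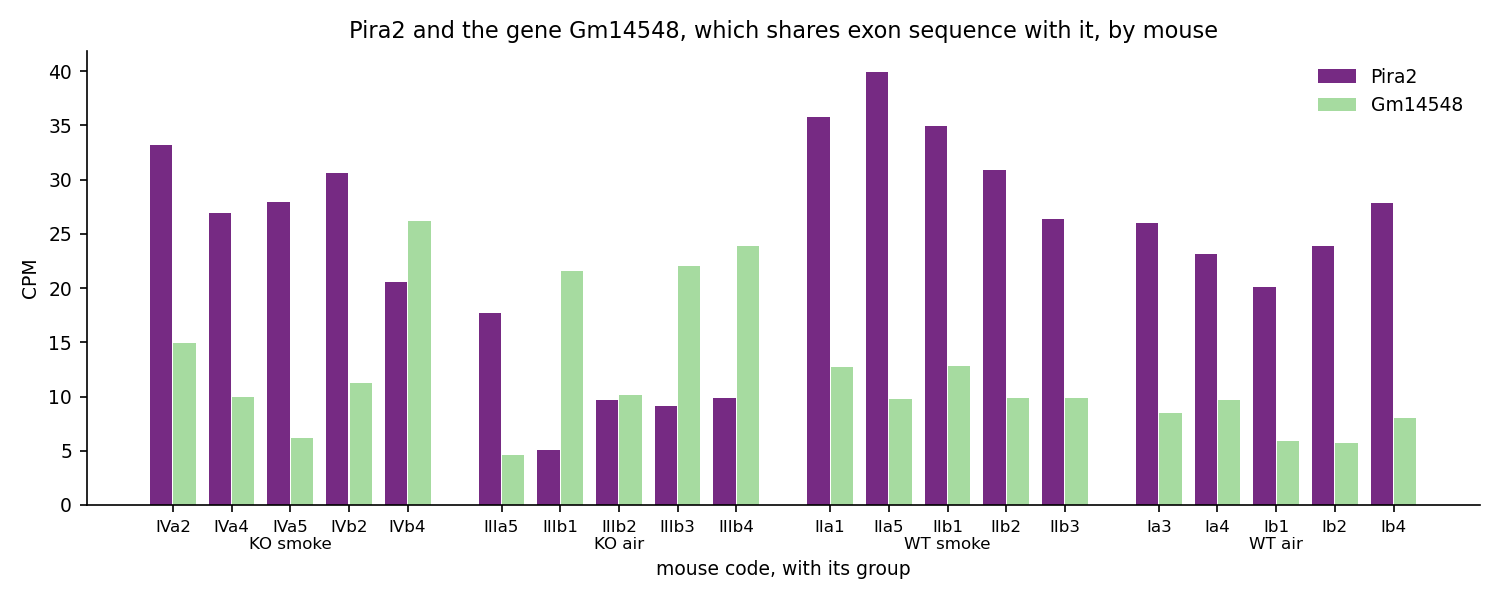
CPM (vertical axis) of Pira2 and Gm14548 in each of the 20 mice, ordered by group (horizontal axis). In KO air mice IIIb1, IIIb3 and IIIb4 Gm14548 is at 21.6 to 23.9 CPM and Pira2 at 5.05 to 9.91 CPM, while Pira2 is the higher of the pair in all 10 WT mice.

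Pirb, the inhibitory counterpart of the PIR-A receptors, averaged 340 ± 28.0 CPM in KO smoke, 341 ± 12.2 in KO air, 356 ± 15.6 in WT smoke and 313 ± 36.4 in WT air (SD, n = 5 each). It was called in no comparison. For KO against WT in air its log2 change was 0.13 ± 0.07 (limma adjusted p = 0.494), beside -1.33 for Pira2. With smoke its change was -0.01 ± 0.07 in KO (limma adjusted p = 0.971) and 0.19 ± 0.07 in WT (limma adjusted p = 0.0511).

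KO was set against WT within each exposure. In smoke 1 of the 7 members was called, lower, where 1.58% of all genes were called (0.892% higher and 0.688% lower). In air 2 of the 7 were called, both lower, where 0.416% of all genes were called (0.151% higher and 0.265% lower). These counts too are descriptions, given how the 7 genes were chosen. Fcgr2b was lower in KO than in WT in both exposures, and Pira2 was lower in KO air than in WT air. With the values given above, Fcgr2b in KO smoke ran from 150 to 247 CPM against 237 to 315 CPM in WT smoke, and in KO air from 176 to 199 CPM against 232 to 308 CPM in WT air. The groups overlapped in smoke through KO mouse IVa4 and did not overlap in air.

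The log2 change of Fcgr2b was -0.42 ± 0.10 in smoke (limma adjusted p = 0.0235) and -0.43 ± 0.10 in air (limma adjusted p = 0.0439), or 0.747 and 0.742 times the WT level. Both calls were near the threshold. In smoke the call was lost without WT mouse IIb1 (limma adjusted p = 0.0718), WT mouse IIb3 (0.0833), KO mouse IVa5 (0.0863) or KO mouse IVb2 (0.0691). In air it was lost when any 1 of the 10 mice other than IIIa5 was left out, with limma adjusted p-values of 0.0518 to 0.133, and without the 3 KO air mice together it was -0.39 (limma adjusted p = 0.473). The direction was lower in KO under all alternatives tried in both exposures.

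Pira2 in air was lower in KO by a log2 change of -1.33 ± 0.21 (limma adjusted p = 0.000972), 0.398 times the WT level, with no overlap between the groups. It was -1.34 without the 3 KO air mice (limma adjusted p = 0.0447), and with a spread estimated from the 2 air groups alone the limma adjusted p was 0.0688. In smoke its change was -0.27 ± 0.21 (limma adjusted p = 0.658). Siglece was at 62.3 to 102 CPM in KO air, against 54.2 to 67.7 CPM in WT air, a log2 change of 0.38 ± 0.12 that was not called (limma adjusted p = 0.185). For Fcer1g in smoke the change was -0.21 ± 0.06 (limma adjusted p = 0.093), and it was called without WT smoke mouse IIa5 (limma adjusted p = 0.0343). Fcgr1, Fcgr3 and Fcgr4 were called in neither exposure, with log2 changes of -0.15, 0.02 and 0.25 in smoke and 0.17, 0.06 and 0.12 in air.

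The comparison of the 2 smoke responses called 0 of 7 members, and 0.0% of all genes were called by limma, with 1302 of 13225 genes at an unadjusted p under 0.05. Apart from Pira2, Fcer1g and Siglece, given above, the differences of response (KO minus WT, log2) were -0.32 ± 0.19 for Fcgr1, 0.13 ± 0.14 for Fcgr4, -0.04 ± 0.09 for Fcgr3 and 0.01 ± 0.14 for Fcgr2b. A gene called in 1 genotype and not in the other is therefore not shown to respond differently.

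Activating receptor transcripts were set against the inhibitory Fcgr2b in each mouse as the difference of log2 CPM, with no test. These CPM are not scaled to exon length. The differences can be compared between groups, but they do not show which transcript was more abundant. Per kilobase of exon, Fcgr4 was above Fcgr2b in every group, with group means of 67.7 to 95.9 against 32.4 to 46.0 CPM. Fcgr3 exceeded Fcgr2b by 1.61 ± 0.25 in KO smoke, 1.51 ± 0.10 in KO air, 1.18 ± 0.13 in WT smoke and 1.02 ± 0.22 in WT air (SD, n = 5 each). The 10 KO mice, at 1.42 to 1.98, were all above the 10 WT mice, at 0.66 to 1.28. Each difference takes in Fcgr2b, which was itself lower in KO (-0.43 in air, -0.42 in smoke), while Fcgr3 was at 0.06 and 0.02. The separation for Fcgr3 therefore mostly restates the Fcgr2b values and is not a separate result. The limits of the Fcgr2b calls given above hold here too. Fcgr4 lay at -0.97 ± 0.23 relative to Fcgr2b in KO smoke, -0.65 ± 0.28 in KO air, -1.64 ± 0.13 in WT smoke and -1.21 ± 0.25 in WT air, and the genotypes overlapped in neither exposure. Fcgr1 lay at -2.12 ± 0.47 in KO smoke, -1.23 ± 0.28 in KO air, -2.39 ± 0.36 in WT smoke and -1.83 ± 0.13 in WT air, with an overlap between the genotypes in smoke and none in air.

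**Figure D4:**
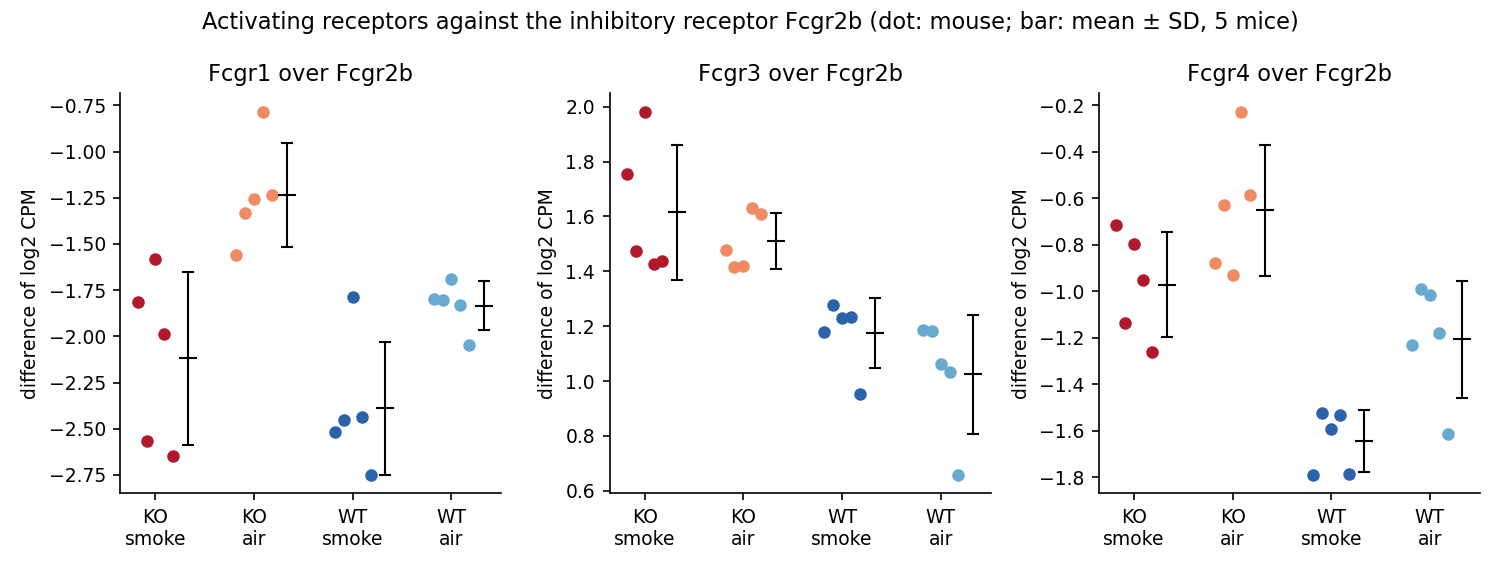
Difference of log2 CPM (vertical axis) between Fcgr1, Fcgr3 or Fcgr4 and Fcgr2b in each mouse of the 4 groups (horizontal axis), with the mean and SD over 5 mice. For Fcgr3 all KO mice, at 1.42 to 1.98, are above all WT mice, at 0.66 to 1.28. Each difference takes in the Fcgr2b value of the mouse and is not scaled to exon length.

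Genes around the members in the same pathways were counted from 8 lists, of which 6 are given here. All list counts with smoke stand beside 15.5% of all genes called in KO and 22.4% in WT. Without the 3 KO air mice, 1220 of 13225 genes were called in KO, against 2051, so smaller list counts there go with fewer calls over all genes. Of 13 other Fc receptor genes 4 were measured, and Fcgrt, which encodes the neonatal Fc receptor that recycles IgG, was the 1 called: -1.04 in KO and -1.11 in WT with smoke on the log2 scale (limma adjusted p = 9.56e-10 and 1.65e-10), with means of 192 CPM in KO smoke, 393 in KO air, 171 in WT smoke and 369 in WT air. Of 6 measured other Siglecs, Siglecf fell with smoke, at -1.15 in KO and -1.25 in WT, and Cd33 rose, at 0.47 in KO and 0.34 in WT. Siglecf protein was part of the sort. The median smoke change was -0.00 in KO and -0.13 in WT over the other Siglecs and 0.65 in KO and 0.48 in WT over the 4 Fc receptor genes, beside -0.01 in KO and -0.02 in WT over all genes. Fcgrt at -0.94, Siglecf at -1.16 and Cd33 at 0.55 stayed called in KO without the 3 KO air mice.

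Among 16 measured genes for other receptors that pair with the FcR gamma chain or with DAP12, 3 rose and 1 fell with smoke in KO, and 6 rose and 3 fell in WT. Trem2, a lipid-binding receptor of macrophages, rose by 1.64 in KO and 1.69 in WT on the log2 scale, and Clec5a, a lectin receptor that pairs with DAP12, by 1.11 and 1.36. Tyrobp, which encodes DAP12, rose by 0.23 in KO and 0.18 in WT. Clec4e, which encodes the FcR gamma-linked lectin Mincle, fell, at -1.27 in KO and -1.50 in WT. The list median was 0.03 in KO and 0.11 in WT. Without the 3 KO air mice, 4 rose and 2 fell in KO, among them Trem2 at 1.84, Clec5a at 1.01, Tyrobp at 0.28 and Clec4e at -1.50. Lilra5 fell with smoke in WT, at -0.48, and was higher in KO smoke than in WT smoke by 0.27 (limma adjusted p = 0.0184), and Clec4n, which encodes Dectin-2, was lower in KO smoke than in WT smoke, at -0.35 (limma adjusted p = 0.00859).

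Of 13 measured other inhibitory receptor genes, 2 rose and 3 fell with smoke in KO, and 3 rose and 2 fell in WT, with medians of -0.05 and -0.09. Cd300a rose by 0.80 in KO and 0.92 in WT and Milr1 by 0.62 and 0.80, while Pilra fell, at -0.57 in KO and -0.50 in WT, and so did Clec4a3, at -0.49 and -0.80. Without the 3 KO air mice, 2 rose and 1 fell in KO, and Clec4a3 was no longer called (limma adjusted p = 0.112).

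Of 30 measured ITAM kinases and adaptors, 3 rose and 7 fell with smoke in KO, and 2 rose and 6 fell in WT, with list medians of -0.14 in KO and -0.10 in WT. Without the 3 KO air mice, 1 rose and 4 fell in KO. The falls included Plcg2, a phospholipase, at -0.27 in KO and -0.24 in WT, and Pik3ap1, an adaptor for phosphoinositide kinases, at -0.48 and -0.65. Syk was at -0.24 in WT (limma adjusted p = 0.00773) and was not called in KO. Plcg2 in KO was not called without those 3 mice (limma adjusted p = 0.199). In smoke, Gab2 and Cbl were higher in KO than in WT by 0.33 and 0.26 (limma adjusted p = 0.0232 and 0.0142).

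Of 15 measured ITIM phosphatases and other negative regulators, 0 rose and 5 fell with smoke in each genotype, the same genes in both: Ptpn12, Csk, Pag1, Ptprc and Ptprj. Ptprc, which encodes CD45 and also serves activation by opening Src family kinases, was at -0.30 in KO and -0.69 in WT. Csk, the kinase that closes Src family kinases, was at -0.40 in KO and -0.29 in WT. The list medians were -0.09 in KO and -0.02 in WT, and without the 3 KO air mice 2 of the 15, Ptprc and Ptprj, fell in KO. None of the 15 was called between genotypes in either exposure.

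Marker lists of other cell types were read beside these results. Of 11 neutrophil markers, 7 were measured, of which 3 rose and 1 fell with smoke in each genotype, as in KO without the 3 KO air mice, and their summed level was 141 to 316 CPM in KO smoke, 90.3 to 138 in KO air, 163 to 360 in WT smoke and 92.5 to 129 in WT air. Csf3r fell with smoke, at -1.59 in KO and -1.69 in WT on the log2 scale. Cxcr2 rose by 1.79 in KO and 0.99 in WT, and Mmp8 by 2.42 and 2.34. S100a8 was called higher with smoke in KO only, and S100a9 in WT only. S100a8 averaged 9.38 CPM in KO smoke, 3.10 in KO air, 15.3 in WT smoke and 8.20 in WT air. In air, S100a8 was called lower in KO than in WT, at -1.48 (limma adjusted p = 0.0347). That call was lost without the 3 KO air mice (limma adjusted p = 0.378). S100a9 was at 0 in all air libraries. Of 16 monocyte and interstitial macrophage markers, 14 were measured, at 527 to 636 CPM in KO smoke, 684 to 931 in KO air, 540 to 888 in WT smoke and 666 to 821 in WT air, with Ly6c2 and C1qa at 0 in all WT air libraries. The part of either list in the values of Fcgr1, Fcgr4, Siglece and Pira2 was not tested.

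Cells that share Fcgr2b, Fcgr3 or Fcer1g were also checked. Of 8 B cell markers 1 was measured, at 0.0 to 1.71 CPM over all libraries, and of 9 mast cell and basophil markers 1, at 0.0 to 2.59 CPM. Of 14 NK and T cell markers 3 were measured, at 0.642 to 7.25 CPM in KO smoke, 0.0 to 2.03 in KO air, 7.47 to 41.8 in WT smoke and 0.718 to 2.35 in WT air. Of 10 dendritic cell markers 8 were measured, at 353 to 453 CPM in KO smoke, 358 to 624 in KO air, 468 to 606 in WT smoke and 436 to 572 in WT air. Single dendritic cell markers moved both ways with smoke. In KO 2 rose and 1 fell, or 1 rose and 2 fell without the 3 KO air mice, and in WT 2 rose and 0 fell. Their median log2 change was 0.69 in KO, 0.16 without the 3 KO air mice, and 0.54 in WT. Of 9 eosinophil markers the 2 measured were Ear1 and Ear6, which alveolar macrophages also express, at 199 to 263 CPM in KO smoke, 379 to 625 in KO air, 210 to 347 in WT smoke and 429 to 502 in WT air. The 14 alveolar macrophage markers were all measured and summed to 53888 to 65458 CPM over all libraries. The parts of these cell types were not tested.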

How the data were processed

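Poly-A RNA of sorted alveolar macrophages was sequenced from 5 mice in each of 4 groups, taken from the labels. STAR 2.6.0c, limma and the build GRCm38.p6 are named in the submitters' processing notes. The sources used here give no counting tool, strand setting, annotation or low-count filter. The values deposited by the authors are log2 CPM with 0.5 reads added to each count and 1 to the total; with that formula, 100% of values gave whole reads within 0.001, and CPM are from these reads. They correct for library size only.

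limma 3.58.1 (R 4.3.3, mean-trended prior) took the deposited values of all 13225 genes, with 1 mean for each group; p-values are 2-sided and adjusted over all genes of a contrast. The steps were tested on simulated data. The 7 members, 8 pathway lists and 8 marker lists were chosen with earlier results of these data known. The members, list genes called, and the 3 genes most correlated with each member were named. Medians and ratios are descriptions. Shared 50-base stretches are from GENCODE M21 exons.  Python 3.11.15 with pandas 2.3.3 was used. Alternatives were other variance priors, filters, scalings, weights and samples, with results in the closing part.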

Additional observations from a re-analysis of the deposited data

Results flagged for a closer look

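Within groups of 5 mice, 28 combinations of member and group were searched for a mouse far from the others (gap over range above 0.71), and 3 were found; chance gives about 1 in 20. Fcgr1 in WT smoke mouse IIb1 was high, at a log2 CPM of 6.29, with a gap of 0.887 of the range; without it the smoke change in WT was -0.64 instead of -0.49. Fcgr2b in WT air mouse Ib4 was high, at 8.27 (gap 0.768); without it Fcgr2b for KO against WT in air was -0.36 and no longer called (limma adjusted p = 0.133). Fcer1g in KO smoke mouse IVa2 was high, at 9.36 (gap 0.722); without it the smoke change in KO was -0.01 (limma adjusted p = 0.975).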

How the results depend on the processing

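No paired analysis was possible because each mouse code occurs once. Planned edgeR and DESeq2 fits were not run; voom weights and TMM factors on the recovered reads were. Over the alternatives, 668 of 714 values of single members kept direction and side of the threshold, 19 lost the call, 11 gained it, and 16 changed sign, none of them called. With 1 mouse left out at a time, 14 of the 16 arose, with log2 changes from -0.068 to 0.111 for Fcgr2b and -0.080 to 0.028 for Fcgr3 in the difference of responses, -0.025 to 0.084 for Fcgr3 and -0.214 to 0.0079 for Fcgr1 in KO against WT in smoke, and -0.0056 to 0.066 for Fcer1g with smoke in KO. Without the 3 KO air mice, Fcgr1 in KO against WT in air was -0.0032 and Fcgr2b in the difference of responses -0.031. Genes called with smoke in KO fell to 1220 without the 3 KO air mice (IIIb2, IIIb3 and IIIb4), against 2051. For KO against WT in air, 24 genes were called with the compared groups only and 24 without the 3 mice, against 55. For KO against WT in smoke, 105 were called with a prior without trend and 334 with the compared groups only, against 209. The difference of responses, with 0 genes, gave 3 with a prior without trend, 2 with a robust prior, 2 with a minimum mean log2 CPM of 1, 4 with log2 of CPM plus 1, 3 with quantile normalization, 2 with median centring and 2 with voom weights and TMM factors. Members called for KO against WT in air were 1, against 2, with a prior without trend, median centring, compared groups only, voom weights and TMM factors, or without the 3 mice. In smoke they were 0, against 1, with a prior without trend. The cause was not tested.

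With 1 mouse left out, genes called ran from 1712 to 2188 for smoke in KO, 2484 to 3010 for smoke in WT, 88 (without WT IIb1) to 374 (without WT IIa5) for KO against WT in smoke, 29 (without WT Ia4) to 182 (without KO IIIa5) in air, and 0 to 42 (without WT IIa5; 19 without KO IIIa5) for the difference of responses. Counts also moved past 1.5 times in smoke without WT IIb2 (132), KO IVa5 (138) or KO IVb2 (138), in air without WT Ib2 (36), and for the difference of responses without KO IIIb1 (10) or without WT Ib2, WT IIa1, WT IIb3 or KO IVa2 (1 each). In the same order of comparisons, members called ran from 3 to 4, 5 to 5, 0 to 2, 1 to 2 and 0 to 1. Pira2 with smoke in WT was called with the compared groups only (limma adjusted p = 0.013) and with voom weights and TMM factors (0.0229). Fcgr3 with smoke in KO was called in 6 of 19 alternatives (limma adjusted p 0.00597 to 0.187).

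Depth limits Pira2 most, with 52 to 407 reads per library, and the floor of 3 reads is worth 0.251 to 0.436 CPM. Intervals give the uncertainty of a difference of group means, estimated from the spread between these mice, and are not adjusted over genes.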

Other observations

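Sialic acid and oxidase genes, beside the ligands of Siglec-E and the output of Fc receptors, make up the remaining lists. Of 14 measured genes of sialic acid handling, 3 rose and 2 fell with smoke in each genotype, with medians of -0.01 in KO and 0.08 in WT. Those higher were Cmas, which activates sialic acid, by 0.29 in KO and 0.31 in WT, St6gal1 by 0.50 and 0.67, and St6galnac4 by 0.53 and 0.74 on the log2 scale. The sialyltransferase genes St3gal2, at -1.11 in KO and -1.90 in WT, and St3gal4, at -0.45 and -0.53, fell. In KO, 1 (St6gal1) rose and 0 fell without the 3 KO air mice.

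Of 19 measured genes of the phagocytic cup and oxidase, 1 rose and 1 fell with smoke in KO, and 2 rose and 5 fell in WT, with medians of -0.08 in both. Cybb, the catalytic subunit of the phagocyte oxidase, fell in WT, at -0.59, and its partner Cyba rose by 0.34. Coro1a fell, at -0.40 in KO and -0.30 in WT. Without the 3 KO air mice, 0 rose and 1 fell in KO, and Coro1a was not called (limma adjusted p = 0.124).

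Over the 20 libraries, the genes with the pattern most like each member among 10402 genes (minimum mean log2 CPM 1) are given by Pearson's r, as descriptions; group differences and library depth are shared by all points. Siglece was closest to Icosl (0.958), Pla2g15 (0.956) and Fcgrt (0.955). Fcgr1 was closest to Uba7 (0.903), Nxf1 (0.868) and Atp2b4 (0.867). Fcer1g was closest to Dbi (0.894), Cfl1 (0.893) and Tsta3 (0.89). Pira2 was closest to Selenof (0.899), S100a8 (0.886) and Nampt (0.874). Fcgr4 was closest to Trib1 (0.854), Grk5 (0.846) and Tle3 (0.84), Fcgr3 to Tcn2 (0.823), Itgb5 (0.822) and Gsr (0.82), and Fcgr2b to Gltp (0.816), Idua (0.801) and Rpl22l1 (0.766). Around the group means the same pairs had r between 0.283 (Fcgr2b with Idua) and 0.783 (Fcer1g with Dbi).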
